A study of Mus musculus with 2 samples.

Results

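The genes described here encode the heat shock chaperones of the cytosol and mitochondria, their co-chaperones and the heat shock factors. They were chosen by name, as all probe sets that the platform annotation assigns to a listed gene symbol. Of 42 listed genes, 39 had a probe set of their own, 105 probe sets in all, out of 18193 genes named on the array. Hsp90ab1 and Hsf1 were matched to no probe set, and Ptges3 was matched only by probe sets that it shares with a pseudogene, so these 3 are not analysed as genes here. For a gene with several probe sets, the brightest by mean signal over both arrays stands for it and is called its main probe set. A gene was counted as measured when this probe set reached the median of its array (225.7 in the sham pool, 231.8 in the AKI pool) in at least 1 pool. Of the 39 genes, 38 were measured in this sense, and Hspa1a was below this level in both pools.

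Livers came from female C57BL/6 wild-type mice aged 8 weeks. The sham group had sham surgery, and the AKI group had 30 min of warm ischemia of both kidneys followed by reperfusion, a model of acute kidney injury (AKI). Livers were frozen 24 h later, and 100 mg from each of 3 mice of a group were put in 1 tube, so each group is 1 pool on 1 Affymetrix array. There is no replicate array, no spread between animals can be estimated, and no p-value is given. Higher and lower below describe these 2 pools.

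Chaperones hold unfolded proteins in solution and help them fold. HSP70 proteins bind exposed hydrophobic stretches in a cycle of ATP hydrolysis that J-domain proteins start and that nucleotide exchange factors, among them the HSP110 and BAG proteins, complete. HSP90 then finishes the folding of kinases and steroid receptors with a set of co-chaperones, the CCT ring folds actin and tubulin, and HSP60 with HSP10 folds proteins imported into mitochondria. Many of these genes are induced together when heat shock factor 1 binds heat shock elements in their promoters.

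Differences are given as log2(signal + 71.8) in the AKI pool minus the same in the sham pool. The added 71.8, the 25th percentile of all signals, understates the differences of weak genes. All counts past 2-fold are on this scale, so a gene counted as under 2-fold can have a signal ratio above 2. Repeat measurements exist only as further probe sets of a gene. Over 5149 genes with several measured probe sets, differences within a gene had an SD of 0.70, falling from 0.91 in the lowest to 0.65 in the highest of 4 level classes. This SD contains differences between transcripts and leaves out the animals. The ratio of the 3' to the 5' control probe set, a measure of RNA integrity, was 1.61 in the sham and 2.24 in the AKI pool for Actb, and 0.860 and 1.05 for Gapdh. Its part in the differences below was not tested. Hepatocyte markers were strong in both pools, with summed signals of 501927 and 463568 over 6 genes. Of these 5 were below 0, down to -0.54 for Apoa1, while Fgb went from 58222.6 to 106882 (0.88). In tissue RNA, fewer cells of a type and less RNA per cell cannot be told apart.

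The chaperone genes lay on both sides of equality. Of the 38 measured genes, 5 were at least 2-fold higher in the AKI pool (13.2%), 9 were at least 2-fold lower (23.7%), and 24 lay between. Among all 13142 measured genes 10.7% were higher and 12.8% lower by this size. The median difference was -0.26 over the chaperone genes and -0.02 over all genes, and 22 chaperone genes were below 0 against 16 above. Those higher were Bag3, Hsp90aa1, Hspa4, Cct2 and Hspb8, and those lower were Fkbp4, Dnajb4, Hsph1, Dnaja1, St13, Dnaja3, Cryab, Chordc1 and Stip1. On this scale Bag5 (0.95) and Hspa4l (-0.94) were just short of 2-fold and Hspb8 (1.01) just past it. The signals of Bag5 and Hspa4l differed by ratios of 2.04 and 2.19, and both were counted with a pseudocount of 1. The scaling matters for the balance. Centring on 18 hybridization controls moved every gene up by 0.30 and left 6 chaperone genes higher and 6 lower, with a median of 0.03. Centring on 12 measured reference genes moved every gene down by 0.33 and left 3 higher and 12 lower, with a median of -0.59. Over all genes at least 2-fold apart, the higher ones made up 45.6% with the authors' scaling, 67.0% with the first centring and 23.9% with the second.

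**Figure D1:**
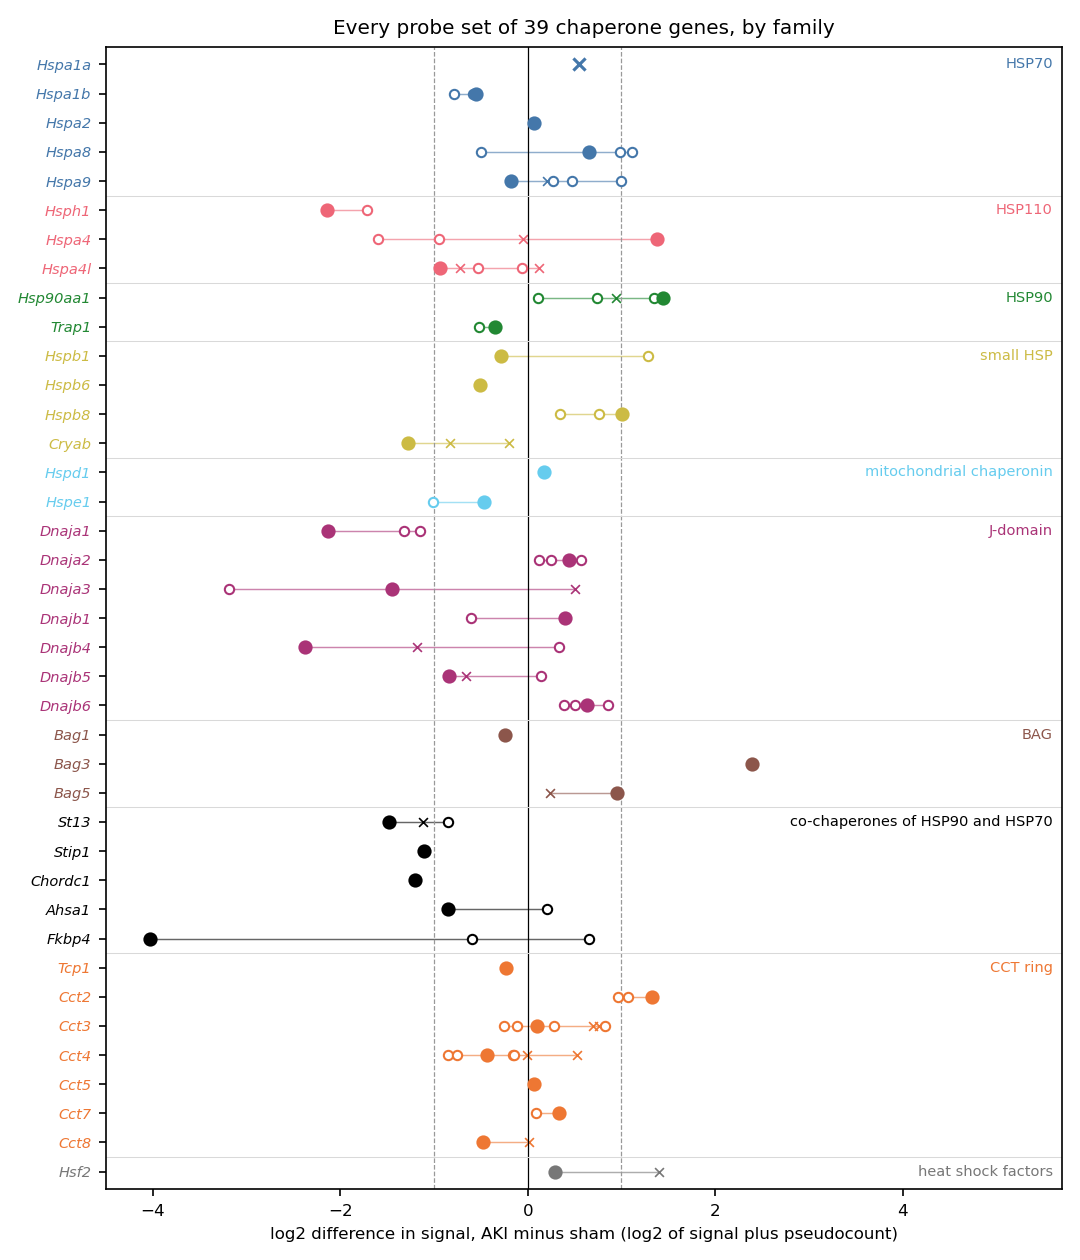
Log2 difference in signal, AKI minus sham (x axis), for every probe set of the 39 chaperone genes (rows, grouped and coloured by family). Filled circles are the probe sets that represent a gene, open circles other probe sets past the level filter, crosses probe sets below it, and dashed lines mark 2-fold; Bag3 lies farthest to the right at 2.40 and Fkbp4 farthest to the left at -4.03, and lines that cross 0, as for Hspa4, join probe sets of opposite direction.

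The 5 measured genes grouped here as co-chaperones of HSP90 and HSP70 were lower in the AKI pool on their main probe sets. All 5 measured genes of this family were below 0, with a median of -1.21. At least 2-fold lower were 4 of them (Fkbp4, St13, Chordc1 and Stip1), against 12.8% of all measured genes. This count depends on the processing. Only St13 and Fkbp4 were that much lower when centred on hybridization controls or with a larger pseudocount. Without probe sets whose suffix marks a possible match to several transcripts, only Stip1 and Chordc1 were. The median over all probe sets of a gene dropped Fkbp4, and reference gene centring added Ahsa1. Of the 9 measured probe sets of the family 7 were below 0. The median stayed below 0 under every scaling, filter and probe set choice tried, between -1.54 and -0.85. It describes these 5 genes only. Of 26 further measured genes of the HSP70 and HSP90 system, given below, 12 were above 0 and 14 below.

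St13 encodes HIP, a protein that stabilises HSP70 in its substrate-bound state. Its main probe set had a signal of 4152.3 in the sham and 1446.5 in the AKI pool (-1.48). The second probe set went from 842.0 to 434.1 (-0.85), and another, below the level filter, from 161.7 to 35.6 (-1.12). All 3 probe sets of St13 were thus lower in the AKI pool. Stip1 encodes HOP, the adaptor that passes substrates from HSP70 to HSP90. Its only probe set read 2013.3 in the sham and 899.1 in the AKI pool (-1.10). Chordc1, an HSP90-binding protein that is itself heat-inducible, read 1022.4 and 402.1 on its only probe set (-1.21). Agreement between probe sets cannot be checked for Stip1 and Chordc1.

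Ahsa1 encodes AHA1, the activator of the HSP90 ATPase. The main probe set of Ahsa1 went from 3863.3 to 2111.8 (-0.85), and a weak second probe set from 267.6 to 320.1 (0.21). Fkbp4 encodes FKBP52, an immunophilin that joins HSP90 on steroid receptors. Its main probe set read 1724.7 in the sham and 37.8 in the AKI pool (-4.03). The AKI signal lies below the level filter and below the added 71.8, so the size is not well set, at -5.47 with a pseudocount of 1 and -2.87 with 228.7. The other probe sets of Fkbp4 did not share this size. They went from 429.5 to 261.2 (-0.59) and from 173.5 to 313.4 (0.65). Without probe sets whose suffix marks a possible match to several transcripts, Fkbp4 was at -0.59, so its size rests on 1 probe set. The 2 probe sets shared by Ptges3, the gene of the HSP90 co-chaperone p23, and its pseudogene were at -0.06 and 0.32.

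Of the measured HSP90 genes Hsp90aa1 was higher in the AKI pool and Trap1 was not. Hsp90aa1, the stress-inducible cytosolic HSP90, had a signal of 2864.0 in the sham and 7907.2 in the AKI pool on its main probe set (1.44). A second probe set went from 2372.2 to 6165.7 (1.35) and the third from 2317.4 to 3915.7 (0.74). The fourth read 358.4 and 394.1 (0.12), and a last one, below the level filter, 17.4 and 100.2. All 4 measured probe sets of Hsp90aa1 were above 0, and the 3 strong ones were at or above 0.74. With the mean over its probe sets Hsp90aa1 was at 0.91, under 2-fold. Trap1, the mitochondrial HSP90, was slightly lower on both probe sets. They went from 4200.6 to 3287.0 (-0.35) and from 1940.6 to 1334.0 (-0.52), a size within the SD between probe sets.

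Among the HSP70 genes none differed by 2-fold, and the median of 4 measured genes was -0.06. This sign is not fixed, as the value was 0.24 when centred on hybridization controls, 0.06 without the level filter, 0.23 with the mean over measured probe sets and 0.17 with the median over all. Hspa8 encodes HSC70, the constitutive cytosolic HSP70. The main probe set of Hspa8 went from 20539.2 to 32287.3 (0.65), the second from 7008.9 to 13934.8 (0.98) and the third from 1282.8 to 2863.3 (1.12). The fourth, without a suffix for several transcripts, was lower in the AKI pool, 456.0 against 301.2 (-0.50). Hspa8 has many processed pseudogenes, and which transcripts its probe sets measure cannot be told apart here.

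The heat-inducible HSP70 genes Hspa1a and Hspa1b had no probe set 2-fold apart on the log2(signal + 71.8) scale. The 3 probe sets of Hspa1b went from 659.3 to 425.9 (-0.55), from 622.4 to 330.8 (-0.79) and from 252.8 to 144.0 (-0.59). Each was lower in the AKI pool by less than 2-fold. The only probe set of Hspa1a was weak, at 49.9 and 106.7 (0.55), and did not pass the level filter. Its difference is held down by the added 71.8 and was 1.08 with a pseudocount of 1. The 2 genes are near-identical neighbours, so their signals may be shared and the split between them is uncertain. Their promoters are alike too. Over the 300 bases from 250 before to 50 after the start, 296 are identical, and over the 120 bases before the start 119 are. These bases are shown because the upstream sequence of the inducible HSP70 genes holds a heat shock element, given in capitals, and they lie upstream of the transcripts in RefSeq build GRCm38.p6, both on the minus strand, Hspa1a at chr17:34972157-34972276 and Hspa1b at chr17:34959239-34959358.
Hspa1a: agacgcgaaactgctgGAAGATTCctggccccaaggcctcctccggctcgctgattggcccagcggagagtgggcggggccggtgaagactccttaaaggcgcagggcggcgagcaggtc
Hspa1b: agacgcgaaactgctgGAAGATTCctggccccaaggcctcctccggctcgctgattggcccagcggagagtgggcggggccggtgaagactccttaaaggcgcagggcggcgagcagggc

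Hspa2, best known from the testis, was at 321.7 and 339.6 (0.06). Hspa9 encodes mortalin, the mitochondrial HSP70 that pulls proteins through the inner membrane. Its main probe set went from 5328.7 to 4701.6 (-0.18), and the other 3 measured ones were between 0.27 and 0.99. No direction can be given for Hspa9 from these probe sets.

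The HSP110 genes, whose products exchange the nucleotide on HSP70, lay on both sides of 0. Hsph1, the heat-inducible HSP110, read 1415.6 in the sham and 265.2 in the AKI pool (-2.14). Its second probe set went from 624.9 to 139.7 (-1.72). Both probe sets of Hsph1 were lower, both carry a suffix for several transcripts, and 266 of 13142 measured genes had a lower difference. Hspa4l was lower on all 3 measured probe sets, from 529.9 to 242.4 on the main one (-0.94) and at -0.53 and -0.06 on the others. Hspa4 had probe sets in opposite directions. Its main probe set went from 876.7 to 2403.4 (1.38), the second from 432.7 to 95.1 (-1.60) and the third from 239.8 to 90.4 (-0.94), while a weak further one read 40.4 and 36.2. The mean over the measured probe sets was -0.38 and the median over all was -0.50, so the count of Hspa4 among the higher genes depends on the probe set. The family median of -0.94 became 0.22 over the 2 genes left without suffixed probe sets.

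**Figure D2:**
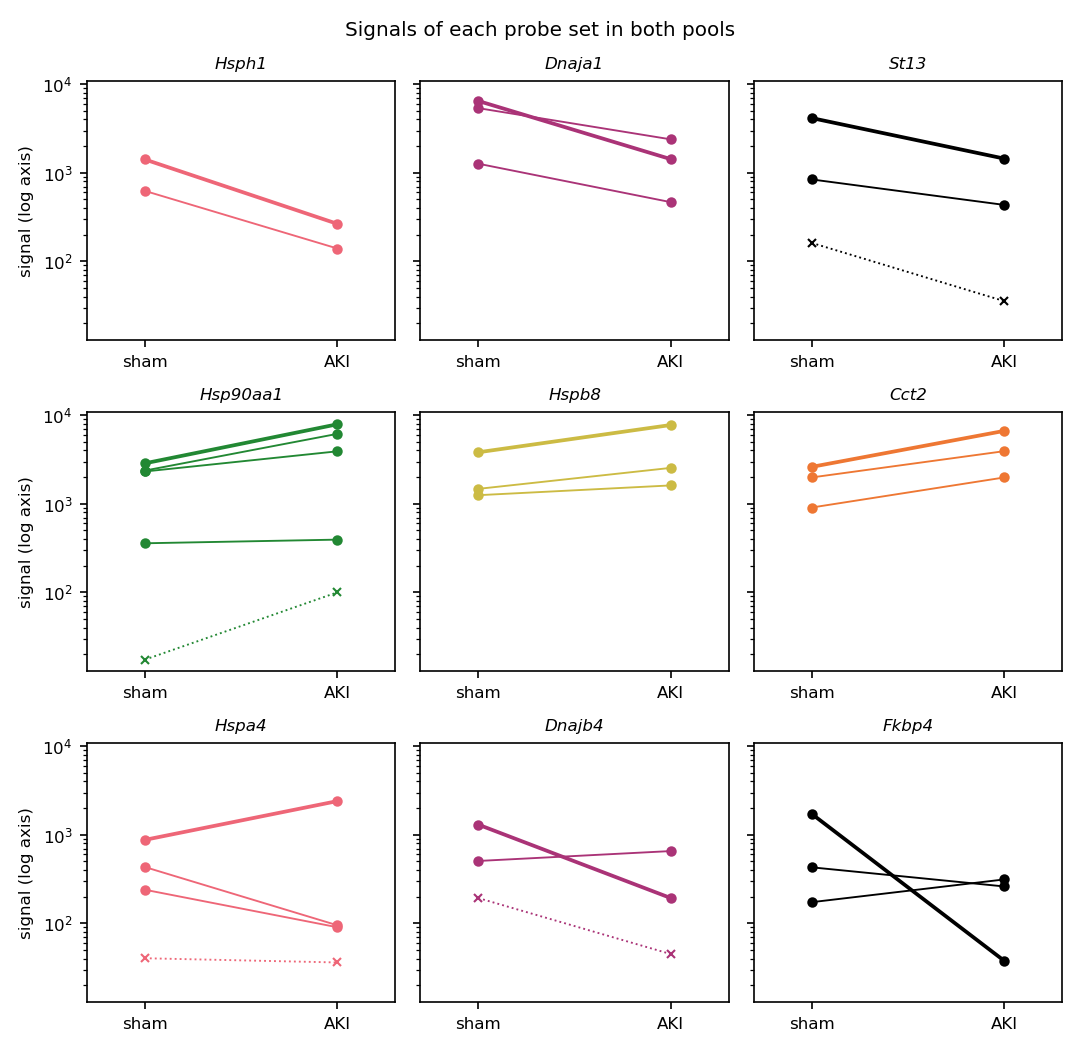
Signal (log axis) in the sham and AKI pools for each probe set of 9 chaperone genes, with a thick line for the probe set that represents the gene and dotted lines for those below the level filter. All lines of Hsph1, Dnaja1 and St13 descend and those of Hsp90aa1, Hspb8 and Cct2 ascend, whereas those of Hspa4, Dnajb4 and Fkbp4 run in both directions.

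J-domain proteins bring substrates to HSP70 and start its ATP hydrolysis. Of the 7 genes 3 were at least 2-fold lower and 0 higher, against 12.8% and 10.7% of all measured genes. The median of the 7 was -0.84. Of their 19 measured probe sets, however, 11 were above 0 and the median was 0.14, while 6 passed 2-fold downwards and 0 upwards. The gene median was -0.35 with the mean over probe sets and -0.22 without suffixed probe sets. Choosing for each gene the probe set with the highest mean log2 level made this median 0.33, as Dnajb4 was then represented by another probe set. Dnaja1, a main J-domain partner of HSC70 in the cytosol, was lower on all its probe sets. They went from 6476.8 to 1425.5 (-2.13), from 5373.6 to 2386.0 (-1.15) and from 1267.1 to 466.1 (-1.32). Every probe set of Dnaja1 thus passed 2-fold.

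Dnaja3 encodes TID1, the J-domain protein of mitochondria. The main one of its probe sets went from 2133.7 to 734.1 (-1.45) and the second from 1023.4 to 48.7 (-3.18). Another, far below the level filter, read 43.9 and 92.2. Both measured probe sets of Dnaja3, each with such a suffix, were lower. Dnajb4 went from 1303.8 to 193.0 on its main probe set (-2.38) and from 506.6 to 655.4 on the second (0.33). A further probe set of Dnajb4, below the level filter, was at -1.18. The gene has no single direction here.

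The other J-domain genes differed less. Dnajb6, which keeps polyglutamine proteins from aggregating, was above 0 on all 4 probe sets, from 0.39 to 0.86, with 1644.8 and 2592.4 on the main one. Dnaja2 was above 0 on all 4 as well, from 0.12 to 0.57. Dnajb1, the HSP40 that is induced with HSP70 by heat, had probe sets at 0.40 and -0.60, with signals of 1061.6 and 1421.8 on the first and 902.0 and 570.3 on the second. Dnajb5 was at -0.84 and 0.14. For these 4 genes every difference was under 2-fold on the log2(signal + 71.8) scale.

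BAG proteins release the nucleotide from HSP70. Bag3, which couples HSP70 to the small heat shock protein HSPB8 and to selective autophagy, had the highest difference of the chaperone genes. Its only probe set read 704.0 in the sham and 4016.4 in the AKI pool (2.40), with 164 of 13142 measured genes higher. Bag5 went from 628.0 to 1281.7 (0.95) and Bag1 from 2544.3 to 2145.0 (-0.24). The BAG median over 3 genes was 0.95, the value of Bag5, and between 0.59 and 1.25 under the alternatives. In a further list Bag2 was at 1.02, Bag4 at -1.62 and Bag6 at -0.55, so no direction is given for the family.

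Small heat shock proteins bind unfolding proteins without ATP. The median of the 4 genes was -0.40, but over their 7 measured probe sets it was 0.35 with 4 above 0, so no direction is given for the family. Hspb8, the partner of BAG3, was higher on all 3 probe sets. They went from 3817.9 to 7759.7 (1.01), from 1474.6 to 2545.1 (0.76) and from 1251.0 to 1613.4 (0.35). Cryab, the alpha-B-crystallin gene, was lower, at 234.3 and 54.6 on its only measured probe set (-1.28) and at 101.4 and 25.6 on a weaker one (-0.83). Only the sham signal of Cryab reached the level filter, and the difference was -2.08 with a pseudocount of 1 and -0.71 with 228.7. Hspb1, the gene of HSP27, went from 2295.6 to 1869.3 on its main probe set (-0.29) and from 81.9 to 303.3 on a weak one (1.29). Hspb6, a small heat shock protein of muscle, went from 958.9 to 652.1 (-0.51). Cryab and Hspb6 are abundant in muscle. Of 4 smooth muscle markers 3 were measured, all with lower signals in the AKI pool, from -0.13 for Acta2 to -0.92 for Myh11 (349.8 against 150.9), with summed signals over the 4 of 3219.8 in the sham and 2662.4 in the AKI pool. Of 4 skeletal muscle markers 1 was measured, and their summed signals were 560.5 and 815.1. The part of these cells in the small heat shock protein values was not tested.

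HSP60 and HSP10, encoded by Hspd1 and Hspe1, form the folding chamber of the mitochondrial matrix. Hspd1 read 22668.8 in the sham and 25649.2 in the AKI pool on its only probe set (0.18). Hspe1 went from 6559.9 to 4724.8 (-0.47) and from 2111.3 to 1015.2 (-1.01) on a second probe set. Both genes thus lay within 2-fold on their main probe sets, Hspe1 below 0 on both of its own. They face away from each other across a stretch of 215 bases between their starts (chromosome 1, Hspd1 starting at 55087932 on the minus strand and Hspe1 at 55088148 on the plus strand, RefSeq build GRCm38.p6). Of this stretch 30 bases are shown on the plus strand, that of Hspe1 (chr1:55088053-55088082), because 1 block of heat shock element, in capitals, lies between the genes. RefSeq lists a further start of Hspd1 outside the stretch.
Hspd1 to Hspe1: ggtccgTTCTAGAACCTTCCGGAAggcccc

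The mitochondrial chaperones Hspa9, Hspd1, Hspe1, Trap1 and Dnaja3 had a median of -0.35 with 0 at least 2-fold higher and 1 lower, Dnaja3. The other 33 measured genes, of the cytosol and nucleus, had a median of -0.24 with 5 higher and 8 lower. Among all measured genes 10.7% were at least 2-fold higher and 12.8% lower. On main probe sets the cytosolic genes spanned -4.03 to 2.40 and the mitochondrial ones -1.45 to 0.18. The widths cannot be compared, as 33 genes are set beside 5. Other measured probe sets of the mitochondrial genes reached -3.18 (Dnaja3) and 0.99 (Hspa9).

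The CCT ring has 8 kinds of subunit, of which 7 were among the listed genes. Cct2 was higher on its 3 probe sets, which went from 2611.8 to 6657.4 (1.33), from 1984.3 to 3929.1 (0.96) and from 907.6 to 1983.6 (1.07). All 3 carry a suffix for several transcripts. No other subunit gene reached 2-fold on the probe set that represents it. Cct4 was below 0 on all 5 measured probe sets, between -0.85 and -0.14, and Cct8 was at -0.47. Cct7 was at 0.33, Cct3 at 0.10, Cct5 at 0.07 and Tcp1 at -0.23. The median of 0.07 was 0.37 and -0.26 under the centrings on hybridization controls and reference genes, and -0.08 without suffixed probe sets. Genes of 1 complex thus lay between -0.47 and 1.33. Of the heat shock factors among the listed genes only Hsf2 was measured, at 392.7 and 494.7 (0.29). Its second probe set, below the level filter, was at 13.4 and 152.7 (1.40). Hsf4, from a further list, read 508.9 and 392.6 (-0.32).

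**Figure D3:**
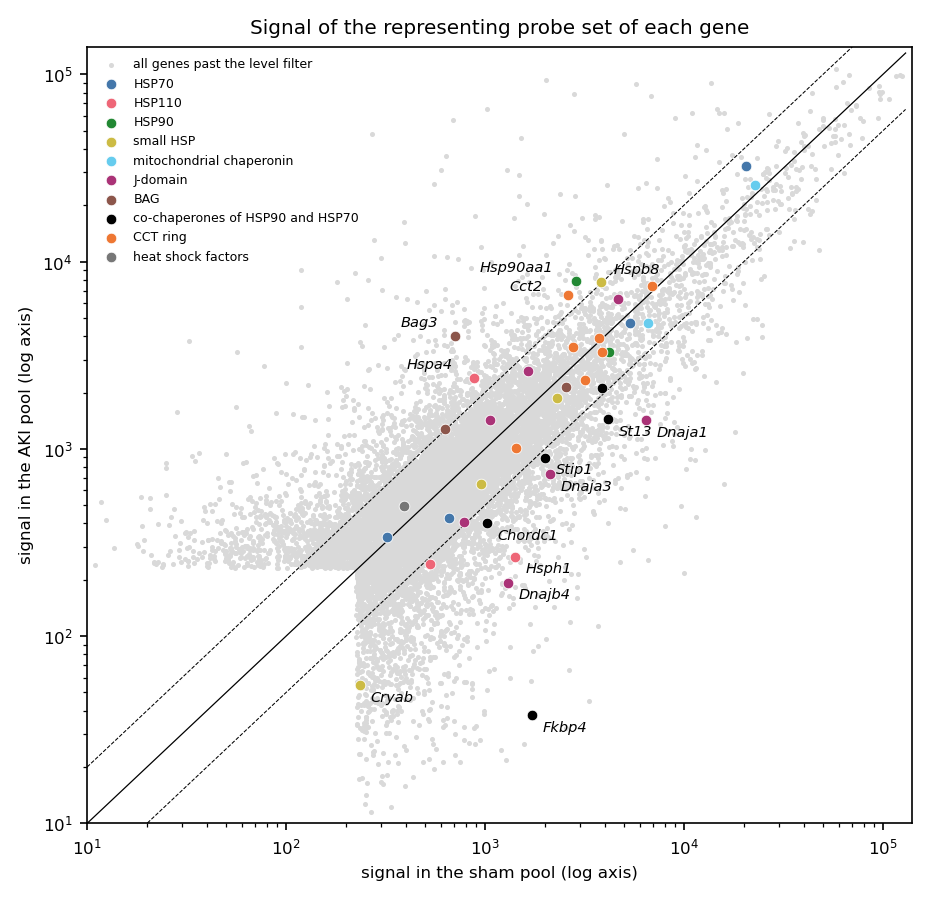
Signal in the sham pool (x) against the AKI pool (y), both on log axes, for the 38 measured chaperone genes, coloured by family, over all 13142 measured genes in grey. The solid line marks equal signals and the dashed lines a ratio of 2; the named genes are those at least 2-fold apart on the log2(signal + 71.8) scale, 5 above and 9 below.

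Probe sets of the same chaperone gene lay on both sides of 0 in 10 genes. Of the 25 genes with several measured probe sets, 15 had all of them on the same side of 0 (60.0%), against 57.7% over all genes with several. Of the genes at least 2-fold higher, Hsp90aa1, Hspb8 and Cct2 had all measured probe sets above 0, Hspa4 did not, and Bag3 had 1 probe set. Of those lower, Hsph1, Dnaja1, Dnaja3 and St13 had all measured probe sets below 0, Dnajb4 and Fkbp4 did not, and Stip1, Chordc1 and Cryab had 1 measured probe set. Over the 86 measured probe sets of chaperone genes 9 were at least 2-fold higher and 15 lower. Among 21386 probe sets of all genes 12.0% were higher and 13.3% lower by this size. The median was -0.09 over the chaperone probe sets and -0.01 over all.

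Other genes of the same network were taken from lists by function, which were chosen with earlier results of these data known. Of 26 further measured genes of the HSP70 and HSP90 system 3 were at least 2-fold higher and 5 lower. Over all measured genes these shares were 10.7% and 12.8%. The median of the 26 was -0.20, but 0.10 when centred on hybridization controls and 0.16 without suffixed probe sets. The J-domain gene Dnajb2 (-2.37), Fkbp8 (-1.84), the BAG gene Bag4 (-1.62), the kinase-loading HSP90 co-chaperone gene Cdc37 (-1.16) and the HSP90-bound phosphatase gene Ppp5c (-1.05) were lower. Hspa14 (1.40) and Bag2 (1.02) were higher, as was Dnajc5, which went from 1064.6 to 3371.9. Fkbp5 encodes FKBP51, an immunophilin like FKBP52 in structure that restrains steroid receptors where FKBP52 promotes them. It was lower on both measured probe sets, at -0.88 and -0.56. Of the 26 genes 12 were above 0 and 14 below. Sugt1 (0.23), Tomm34 (0.34), Unc45a (-0.19) and Ttc4 (-0.21) were among those under 2-fold. Prefoldin and other CCT partner genes had a median of -0.12 over 11 genes (0.18 when centred on hybridization controls and 0.10 with the mean or median over probe sets) with Pfdn4 (1.13) alone past 2-fold. In that list Cct6a, the subunit gene of the ring not among the members, was at -0.12. Other mitochondrial import and protease genes had a median of -0.38 over 16 genes, with Tomm20 (1.75) and Afg3l2 (1365.9 against 3994.3) higher and Pam16 (-2.09) lower. The 6 measured probe sets of Tomm20 ran from -0.31 to 2.21.

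Most chaperone genes of the endoplasmic reticulum, 14 of 16, were above 0. Their median was 0.82, between 0.49 and 1.12 under the alternatives. At least 2-fold higher were 6, and 0 were lower, against 10.7% and 12.8% of all measured genes. The 6 were led by Creld2 (3.34), the HSP70 gene of this compartment, Hspa5 (2.71), and Manf (2.39). Hspa5 went from 13721.5 to 89997.6, and Hsp90b1, the HSP90 gene of the compartment, from 7296.9 to 24634.0 (1.75). Canx (-0.43) and Sil1 (-0.68) were below 0. Measured probe sets ran from -0.62 to 0.95 for Hyou1 and from -0.29 to 0.57 for Dnajc10. No test of the difference between compartments is possible with 1 array per group, and this list too was chosen with earlier results known. Of 31 measured genes of the 26S proteasome, which degrades what is not refolded, 0 differed by 2-fold in either direction, and they spanned -0.77 to 0.65 with the authors' scaling. All 7 measured genes for ubiquitin-dependent and aggregate clearance were above 0 and under 2-fold on main probe sets with the authors' scaling. Among them were the autophagy receptor gene Sqstm1 (0.71), Nploc4 (0.76) and Ufd1 (0.72). Measured probe sets ran from -1.25 to 0.55 for Wdfy3, from -0.10 to 0.32 for Tollip and from 0.11 to 1.83 for Vcp. The median of the 7 stayed above 0 under every alternative. Cirbp, an RNA-binding protein gene that rises when cells cool, went from 370.7 to 727.9 (0.85).

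**Figure D4:**
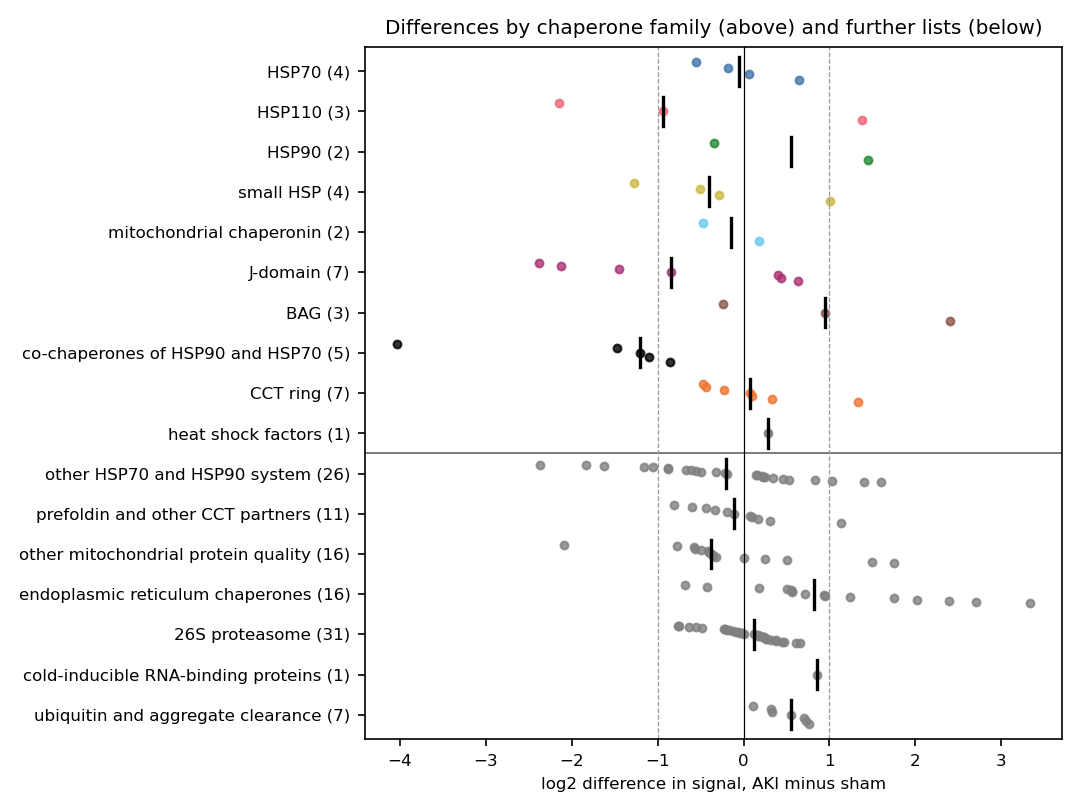
Log2 difference in signal, AKI minus sham (x axis), of each measured gene (points) in the chaperone families and in further lists, with the number of measured genes in brackets; black bars are medians and dashed lines mark 2-fold. The co-chaperone points all lie below 0 around a median of -1.21, the J-domain and HSP110 points lie on both sides of 0, and the endoplasmic reticulum chaperones have a median of 0.82.

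Promoter sequences were read from RefSeq (build GRCm38.p6) as 300 bases from 250 before to 50 after a start. A window was found for 34 of the 42 genes, and none for Cct4, Cryab, Hsf1, Hsp90aa1, Hsp90ab1, Hspa8, Hspa9 and St13. The heat shock element is built from repeats of GAA in alternating direction, and the motifs searched were GAANNTTC or TTCNNGAA, with 2 repeats, and either of these extended after NN by the next repeat in turn (GAA after GAANNTTC, TTC after TTCNNGAA), with 3. Each motif of 2 repeats is its own reverse complement and those of 3 are the reverse complements of each other, so both strands were covered. A motif of 3 contains both motifs of 2. At least 1 window with 2 repeats was found for 16 of 34 genes (47.1%), against 17.0% of 27025 genes, and with 3 repeats for 5 of 34 (14.7%), against 0.662%. Hspd1 and Hspe1 share the same match, and so in effect do the near-identical Hspa1a and Hspa1b.

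The 5 genes with 3 repeats were Hspd1, Hspe1, Dnajb6, Hsph1 and Chordc1, and their differences ran from 0.63 for Dnajb6 to -2.14 for Hsph1. The longest block, that of Chordc1, and the matches of Dnajb6, Dnaja1 and Hsph1 are shown with each match in capitals. They set motifs of 2 or 3 repeats beside differences of both directions. The match of Dnaja1 has 2 repeats. Among these genes only Dnajb6 (0.63) was above 0, by less than 2-fold, and no gene at least 2-fold higher is shown. Chordc1 (chr9:18292261-18292287, plus strand) is given across its start. Dnajb6 (chr5:29735838-29735897, plus strand), Dnaja1 (chr4:40722328-40722387, plus strand) and Hsph1 (chr5:149636337-149636396, minus strand) are given upstream of a start, and the 3 repeats of Hsph1 lie within its first transcribed bases (chr5:149636287-149636302).
Chordc1: cgGAACGTTCGGGAAAATTCCTGAAgc
Dnajb6: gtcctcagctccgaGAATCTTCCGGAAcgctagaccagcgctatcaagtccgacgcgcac
Dnaja1: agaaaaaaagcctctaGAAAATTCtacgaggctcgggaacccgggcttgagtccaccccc
Hsph1 upstream: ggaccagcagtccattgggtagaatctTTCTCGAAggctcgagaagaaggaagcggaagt
Hsph1 transcribed: gaTTCTGGAAAGTTCt

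Of the 15 measured genes with a match of 2 repeats 3 were at least 2-fold higher (Hspb8, Bag3 and Cct2) and 5 lower (Hsph1, Dnaja1, Dnajb4, Chordc1 and Fkbp4), with a median of -0.47. Of the 17 measured genes with a window and no match 1 was higher and 2 lower, with a median of -0.23. Among all 13142 measured genes 10.7% were higher and 12.8% lower by this size. Genes with a match thus lay on both sides, from -4.03 to 2.40. A match describes these letters and does not show that a factor binds there.

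Markers of other liver cells are given beside these values because the tissue was whole liver. Kupffer cell markers had summed signals of 8243.8 in the sham and 4523.1 in the AKI pool over 6 genes. Of these 5 were below 0, while Marco went from 187.4 to 640.3 (1.46). Neutrophil markers summed to 992.7 and 4405.3 over 3 matched genes. Most of this gap lay in S100a8 (161.4 against 2023.4) and S100a9 (191.2 against 1666.6), while Csf3r read 640.1 and 715.3. Cholangiocyte markers summed to 1112 and 2799.8 over 4 matched genes, with most of the gap in Sox9 (229.2 against 1729.9), while Epcam read 609.2 and 826.8, and Krt19 (171.6 and 212.9) and Krt7 (102 and 30.2) were below the level filter. Markers of the sinusoidal endothelium summed to 6651.0 and 4867.3 over 5 genes, with Clec4g (-2.08) lower and Lyve1 (2.71) higher. Those of stellate cells summed to 6338.4 and 6102.3 over 5, with Lrat (-1.74) lower and Des (1.44) higher. No T cell or adipocyte marker passed the level filter in either pool. Their part in the chaperone values was not tested.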

How the data were processed

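Total RNA was extracted with Trizol and 8 ug was made into biotinylated cRNA for Affymetrix arrays, per the labels' protocols. The authors deposited 1 linear signal intensity per probe set and array, and for the summarising software a name was not given in the sources used here. The deposited intensity values had a mean, trimmed by 2% at each end, of 500 on both arrays, so these had been scaled to a common target, which removes any difference in total mRNA. The number of arrays, 1 per group, limits the precision.

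Of 45101 probe sets, 64 are controls, and the platform annotation names 34945 by 1 symbol, 932 by several and 9160 by none. Values were taken as log2(signal + 71.8), with the level filter described in the text, and counted past 2-fold. Members and lists were chosen with earlier results of these data known. Full values are given for genes at least 2-fold apart and for Hspa1a, Hspa1b, Hspa8, Hsp90aa1, Hsp90ab1, Hspd1, Hspe1, Hsf1 and Hsf2 where matched; the largest differences, and counts of 5 or fewer, were named from each further list, and further genes beyond these were picked with their values known. Alternatives tried were median, quantile, lowess (fraction 0.3), hybridization control and reference gene centring, no filter or the 75th percentile, mean or median over probe sets, no suffixed probe sets, and pseudocounts of 1 or 228.7. The computation was tested on simulated data. Python 3.11.15, numpy 2.4.6, pandas 2.3.3, statsmodels 0.14.6 and matplotlib 3.10.9 were used.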

Additional observations from a re-analysis of the deposited data

How the results depend on the processing

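No paired analysis was possible because each group is 1 pool on 1 array. The count of chaperone genes at least 2-fold lower, 9, ranged from 6 to 12 over the 13 alternatives. The count of higher genes, 5, was 3 with reference gene centring, 2 with the mean of a gene's measured probe sets and 2 with the median of all its probe sets, and between 4 and 6 under the others. In both of the latter, Bag3 and Cct2 were the genes counted, and Hspa4 turned to -0.38 and -0.50. The probe set with the highest mean log2 level, a choice added after the data were seen, put Dnajb4 at 0.33 and the J-domain median at 0.33. Without suffixed probe sets the HSP110 median was 0.22. The co-chaperone median stayed below 0, and the BAG median above 0, under all 13 alternatives. The HSP90 median stayed above 0 as well. It is taken over only 2 genes on opposite sides of 0, Hsp90aa1 (1.44) and Trap1 (-0.35), so it gives no direction for the family. The BAG median, over 3 genes with Bag1 (-0.24) below 0, gives none either. The small HSP median was close to 0, at -0.0047, with both the mean and the median over probe sets. Hsf2 was -0.05 with reference gene centring and not measured at the stricter filter. Without suffixed probe sets 32 chaperone genes were measured, and Hsph1, Dnaja3 and Cct2 were not among them.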
